A study of Mus musculus with 2 samples.

Results

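The unfolded protein response and the integrated stress response were followed through 37 genes in mouse liver. A gene was included when a noncontrol probe of the array carried its listed symbol, or a synonym of it, in the gene name field of both scanner files. All 37 listed genes were found, with 45 probes, among 22600 named genes on the array. They comprised 14 endoplasmic reticulum (ER) chaperones and folding enzymes, 4 sensors and transducers, 5 ER-associated degradation genes, 3 transcription factors of the integrated stress response, 9 targets of the transcription factor ATF4 and 2 subunits of the eIF2 alpha phosphatase. Of these, 34 genes were well above background in all 4 channel values, and 3 (Psat1, Phgdh and Stc2) were not in the untreated wild-type liver.

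The unfolded protein response adjusts the folding capacity of the ER to its load of secretory protein, which is large in hepatocytes because they make most plasma proteins. The membrane sensors IRE1 (encoded by Ern1), ATF6 and PERK (Eif2ak3) detect unfolded protein. IRE1 splices Xbp1 mRNA, ATF6 is cleaved to a transcription factor, and both outputs raise chaperone and degradation genes. PERK and its sister kinases phosphorylate eIF2 alpha, which lowers general translation and raises ATF4, a factor for amino acid supply and stress genes.

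Liver RNA of C57BL/6 mice was hybridised to 2 two-colour arrays, 1 of wild-type and 1 of AID transgenic liver. On each array the Cy5 channel held liver RNA of mice given thioacetamide, a hepatotoxin, for 6 months through their drinking water, whereas the Cy3 channel held liver RNA of untreated mice of the same genotype. The sources used here do not give the promoter of the transgene, the species of its coding sequence, the ages or whether animals were pooled.

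Each genotype was represented by 1 array, and dyes were not swapped. No difference therefore has a replicate check, no test was run, and dye and treatment cannot be told apart within an array. Values are log2 ratios of treated over untreated liver, and ± is the error that the scanner software assigned to that ratio, a technical error of 1 array. A difference was counted as 2-fold from a log2 size of 1 upward, provided that any probe of the gene exceeded background in 1 or more of the channels entering it. Levels are log2 intensities normalized across both arrays, and they are compared between channels for the same gene only.

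Each array had 43020 noncontrol spots, of which 53.9% to 56% were well above background in Cy3 and 68.4% to 68.8% in Cy5. None was saturated. The untreated and treated wild-type RNAs differed in sex-linked transcripts: Ddx3y was at least 17.6-fold and Eif2s3y at least 32.1-fold lower in the treated one, and Xist was at least 6.36-fold higher there. On the AID transgenic array the log2 ratios of Ddx3y and Eif2s3y were -0.11 and -0.05. In the wild-type comparison, the treatment and the difference in sex-linked transcripts cannot be told apart, which applies to every wild-type ratio below and to the treated livers compared between genotypes. All 6 hepatocyte markers, among them Alb and Hnf4a, were well above background in all 4 channel values, as the liver label requires. Their summed log2 level was between 18.87 and 19.03, although Apoa1, at -1.79 and -1.84, and Cps1, at -0.96 and -0.99, were lower on both arrays. Fewer cells of a type and less RNA per cell cannot be told apart in whole liver.

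The ER chaperones and folding enzymes were lower in treated wild-type liver, and less so in treated AID transgenic liver. All 14 had a wild-type log2 ratio below 0, or 9 of 14 when the array was centred on its median, and the median was -0.81 beside 0.03 over all measured genes. In the AID transgenic liver 12 of 14 were below 0, with a median of -0.36 beside 0.03. Over all measured genes, 45.3% were below 0 in wild-type and 45.4% in AID transgenic liver. The AID transgenic ratio was above the wild-type ratio for all 14, while over all genes this difference was below 0 for 50.5%. With each array centred on its median instead of loess, the median of all genes moved to 0.35 and 0.34, and the chaperone median was -0.20 in wild-type but 0.29 in AID transgenic liver, so the direction in AID transgenic liver turned with the scaling. Relative to all genes under that centring, the chaperone medians were at -0.55 and -0.05.

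Among the chaperones, 4 were at least 2-fold lower in treated wild-type liver and none was higher. Over all 16528 genes measured on that array, 1.65% were at least 2-fold lower and 1.86% at least 2-fold higher. No chaperone reached 2-fold on the AID transgenic array, where 1.21% of 16561 genes were higher and 0.954% lower.

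**Figure D1:**
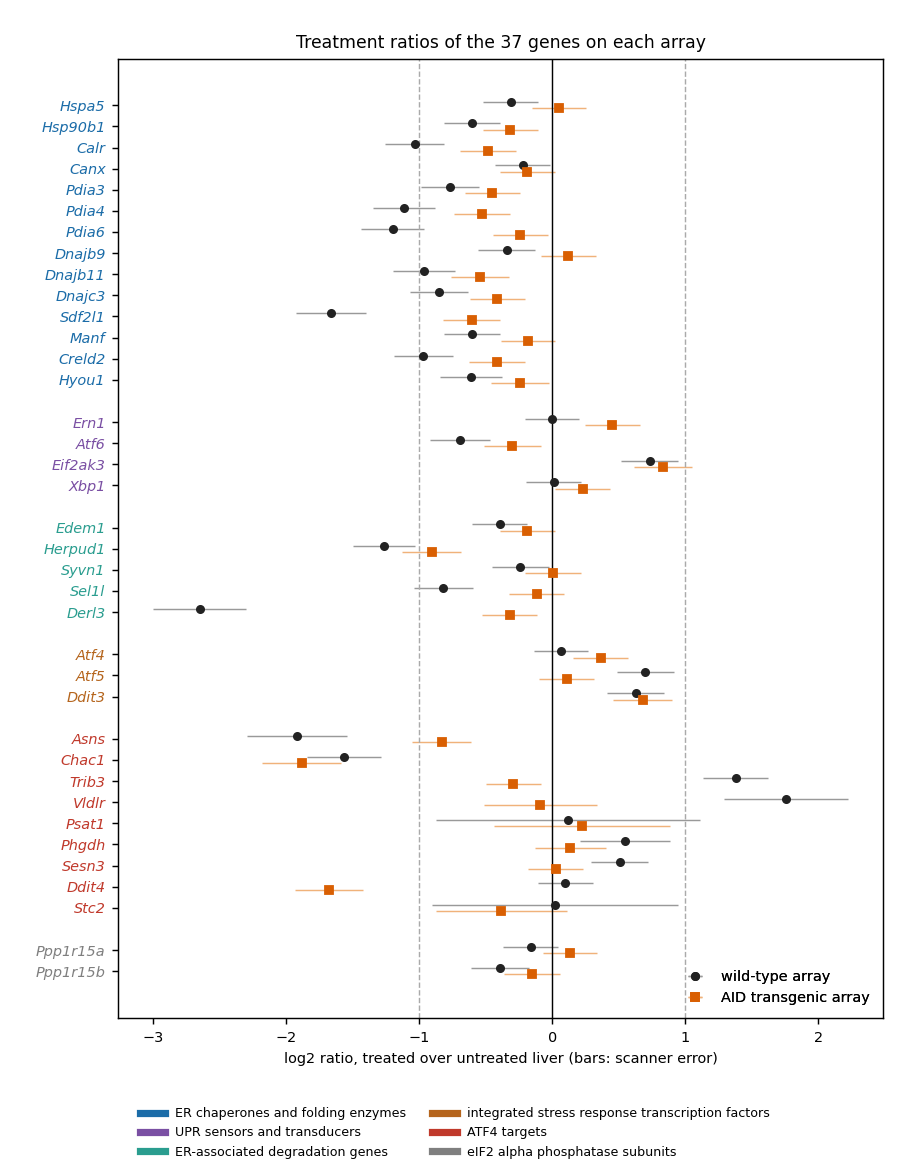
Log2 ratio of treated over untreated liver for the 37 genes, grouped by role in the colours of the key, on the wild-type array (black circles) and the AID transgenic array (orange squares), with the scanner error as bars. Dashed lines mark 2-fold. All 14 chaperones and all 5 degradation genes lie below 0 in wild-type liver (9 and 3 of them when centred on the median), and Derl3 at -2.65 is the lowest of all.

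Sdf2l1, which works with the ER J-domain proteins, stood lowest of the chaperones. Its log2 level was 11.33 in untreated and 9.67 in treated wild-type liver, and 11.28 in untreated and 10.68 in treated AID transgenic liver. The treated wild-type liver was thus apart from the other 3, with a log2 ratio of -1.66 ± 0.26, or 3.16-fold lower, against -0.61 ± 0.21 in the AID transgenic liver.

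Pdia6, a protein disulfide isomerase that forms and reshuffles disulfide bonds, had levels of 12.88 and 11.68 in untreated and treated wild-type liver and of 12.62 and 12.38 in the AID transgenic pair. Its ratios were -1.20 ± 0.23 and -0.24 ± 0.21, and its probes gave -1.24 and -1.16 in wild-type liver. Both probes gave a lower ratio in wild-type than in AID transgenic liver, where they were at -0.23 and -0.24.

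Pdia4, another isomerase of this family, had levels of 10.77 and 9.66 in the wild-type pair and of 10.58 and 10.05 in the AID transgenic pair. Its ratios were -1.11 ± 0.23 and -0.53 ± 0.21. Calr, the calcium-binding lectin chaperone calreticulin, had levels of 13.62 and 12.58 in the wild-type pair and of 13.58 and 13.09 in the AID transgenic pair, with ratios of -1.03 ± 0.22 and -0.48 ± 0.21. For both genes the untreated livers were close to each other and the treated wild-type liver was lowest. Centred on the median, these 4 chaperones were between -0.99 and -0.30 in wild-type liver, while in AID transgenic liver all 4 turned to values above 0, between 0.07 and 0.47.

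The other 10 chaperones had wild-type ratios between -0.97 and -0.22. Creld2, a secreted ER stress protein, was at -0.97 and -0.41 on the wild-type and the AID transgenic array. Dnajb11, a J-domain partner of BiP, was at -0.96 and -0.54, and Dnajc3, another such partner, at -0.85 and -0.41. Pdia3, the isomerase that serves calnexin and calreticulin, was at -0.77 and -0.45. These 4 genes were lower than 0 beyond the scanner error on both arrays with loess. Centred on the median, they stayed below 0 in wild-type liver, between -0.38 and -0.07. In AID transgenic liver all 4 turned to values above 0, between 0.07 and 0.32.

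Hyou1, a large HSP70-related chaperone, was at -0.61 and -0.24. Hsp90b1, which encodes GRP94, was at -0.60 and -0.32, and Manf, a secreted ER stress protein, at -0.60 and -0.18. Canx, the membrane lectin chaperone calnexin, was at -0.22 and -0.19 and differed least between the arrays. Hspa5, which encodes BiP, the main ER chaperone and the restraint on the sensors, was at -0.31 ± 0.21 and 0.05 ± 0.20, and the J-domain protein gene Dnajb9 at -0.34 and 0.12. With loess, Hspa5 and Dnajb9 were the 2 chaperones above 0 in the AID transgenic liver. Centred on the median, wild-type ratios turned to 0.50 for Hspa5, 0.49 for Canx, 0.19 for Hsp90b1, 0.17 for Dnajb9 and 0.09 for Manf. Hyou1 stayed below 0 there, at -0.27. In AID transgenic liver that centring put all 14 chaperones above 0, between 0.07 and 0.83.

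Promoter sequences of the members are shown because ER chaperone genes share a known regulatory element, the ER stress response element. RefSeq sequence of GRCm38.p6, from 250 bases before to 50 after the gene start, was matched for 33 of the 37 members. The element ERSE-I was searched on both strands as CCAAT, 9 bases of any kind, CCACG. It occurred in 9 of these 33 members (27.3%), counted per gene over their 36 windows. Counted per window, it occurred in 0.119% of 32851 windows of the same length, so these shares are in unlike units. Among members with a window, 7 of 12 chaperones held it but 0 of 9 ATF4 targets. The matches follow, read on the strand that carries the element, with 6 bases on each side and the fixed letters in capitals.
Hspa5: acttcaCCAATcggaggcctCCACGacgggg
Calr: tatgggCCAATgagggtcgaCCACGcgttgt
Derl3: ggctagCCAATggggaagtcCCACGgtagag
Hsp90b1 (upstream match): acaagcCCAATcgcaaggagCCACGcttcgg
Hsp90b1 (downstream match): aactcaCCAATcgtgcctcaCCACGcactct
Canx: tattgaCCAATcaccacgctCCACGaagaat
Pdia6: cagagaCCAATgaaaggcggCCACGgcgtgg
Dnajc3: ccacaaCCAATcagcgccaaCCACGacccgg
Creld2: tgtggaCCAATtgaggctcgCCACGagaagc
Syvn1: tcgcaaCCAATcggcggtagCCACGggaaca

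ERSE-II, searched as ATTGG, 1 base of any kind, CCACG on both strands, occurred in 2 of the 33 members (6.06%) and in 0.0365% of all windows. These were Dnajb11, a chaperone, and Herpud1, a degradation gene.
Herpud1: gcgctgATTGGgCCACGttggac
Dnajb11: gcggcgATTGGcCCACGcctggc
The element UPRE, TGACGTGG on both strands, occurred in none of the 33 members with a window and in 0.676% of all windows. Of the 4 chaperones that were 2-fold lower in wild-type liver, Calr and Pdia6 held ERSE-I, and Pdia4 and Sdf2l1 held none of the motifs in this window. A match describes letters only.

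**Figure D2:**
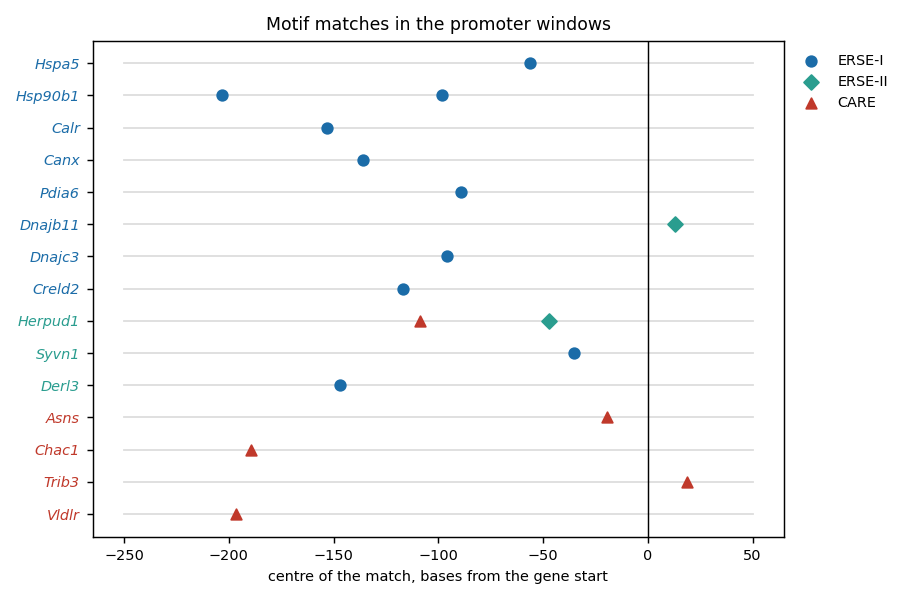
Centre of each motif match, in bases from the gene start, in the windows of the 15 members that held one (gene names coloured by role as in the plot of treatment ratios). Circles are ERSE-I, diamonds ERSE-II and triangles CARE. ERSE-I lies upstream in every one of its 9 genes, between positions -212 and -26, and CARE occurs in ATF4 targets and Herpud1.

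Among the chaperones that hold a motif, Calr and Dnajb11 had the largest mean size of the treatment ratios over both arrays, 0.76 and 0.75, although Pdia6 had the larger wild-type ratio. Their windows are those of Calr, at chr8:84846882-84847181 (minus strand), and Dnajb11, at chr16:22857595-22857894 (plus strand). Capitals mark the fixed letters of the element, which in Calr lies on the opposite strand and is therefore seen as its complement.
Calr: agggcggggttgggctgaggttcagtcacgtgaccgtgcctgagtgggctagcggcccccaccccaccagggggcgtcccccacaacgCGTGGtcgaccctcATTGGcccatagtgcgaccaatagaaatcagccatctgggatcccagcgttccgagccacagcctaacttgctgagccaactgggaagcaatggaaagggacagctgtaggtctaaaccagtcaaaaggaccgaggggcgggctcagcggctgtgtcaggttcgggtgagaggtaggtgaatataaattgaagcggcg
Dnajb11: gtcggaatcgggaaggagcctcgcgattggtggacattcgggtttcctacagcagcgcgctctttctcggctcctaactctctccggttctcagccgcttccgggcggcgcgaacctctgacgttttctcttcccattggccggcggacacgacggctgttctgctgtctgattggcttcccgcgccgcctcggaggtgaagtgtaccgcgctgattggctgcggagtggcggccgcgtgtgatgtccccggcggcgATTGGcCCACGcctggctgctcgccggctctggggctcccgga

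The 5 ER-associated degradation genes were lower on the wild-type array as well. All 5 wild-type ratios were below 0 (3 of 5 when centred on the median), with a median of -0.82, and so were 4 of 5 AID transgenic ratios, with a median of -0.19. Over all genes the shares below 0 were 45.3% in wild-type and 45.4% in AID transgenic liver. Centring on the median left the wild-type median at -0.17 and turned the AID transgenic one to 0.49, above the 0.34 of all genes. In wild-type liver 2 of the 5 were at least 2-fold lower, beside 1.65% of all genes, and none reached 2-fold in AID transgenic liver, beside 0.954% of all genes lower.

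Derl3 encodes Derlin-3, a membrane protein of the channel that returns misfolded proteins to the cytosol. Its level was 10.37 in untreated and 7.73 in treated wild-type liver, and 9.85 in untreated and 9.53 in treated AID transgenic liver. The treated wild-type liver was far below the other 3 channel values. The ratio was -2.65 ± 0.35, or 6.27-fold lower, in wild-type and -0.32 ± 0.21 in AID transgenic liver. Centred on the median, these were -2.03 and 0.32, so the AID transgenic direction turned with the scaling. The window of Derl3, at chr10:75893148-75893447 (plus strand), which was chosen for display after the motif search was seen, holds ERSE-I on the opposite strand.
Derl3: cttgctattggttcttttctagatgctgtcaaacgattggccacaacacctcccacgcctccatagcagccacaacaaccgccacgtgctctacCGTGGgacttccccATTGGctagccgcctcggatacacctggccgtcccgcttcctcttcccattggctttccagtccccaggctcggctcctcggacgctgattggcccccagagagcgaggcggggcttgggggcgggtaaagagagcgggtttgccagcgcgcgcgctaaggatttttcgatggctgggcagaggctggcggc

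Herpud1, a membrane scaffold of the degradation complex, was lower on both arrays. Its levels were 15.17 and 13.91 in the wild-type pair and 15.11 and 14.21 in the AID transgenic pair, with ratios of -1.26 ± 0.24 and -0.91 ± 0.22. Both treated livers were below both untreated livers. Centred on the median, the ratios were -0.48 and -0.15.

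Sel1l, the adaptor of the ubiquitin ligase HRD1, was at -0.82 and -0.12 on the wild-type and the AID transgenic array. Edem1, which directs trimmed glycoproteins to degradation, was at -0.39 and -0.19. Syvn1, which encodes HRD1, was at -0.24 and 0.01 as the mean of a pair of probes. The Syvn1 probe with that name gave -0.41 and 0.08, and a probe with a synonym as its name, which maps to the opposite strand in the coordinates of the file, gave -0.07 and -0.07.

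The sensors and transducers did not share a direction. Eif2ak3, which encodes PERK, had levels of 8.82 and 9.55 in untreated and treated wild-type liver and of 8.97 and 9.80 in the AID transgenic pair. Both treated livers were above both untreated livers, with ratios of 0.73 ± 0.22 and 0.83 ± 0.22. Centred on the median, these were 1.36 and 1.45, past 2-fold.

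Atf6 had levels of 8.44 and 7.74 in the wild-type pair and of 8.16 and 7.86 in the AID transgenic pair, with ratios of -0.70 ± 0.23 and -0.30 ± 0.21. Its AID transgenic ratio turned to 0.14 when centred on the median. Ern1 was at -0.00 and 0.45, and Xbp1, the transcript that IRE1 splices, at 0.01 and 0.23. No sensor reached 2-fold in either genotype with the loess values, while centred on the median Ern1 was at 0.63 and 1.08 and Xbp1 at 0.77 and 0.97. Only transcript levels were measured: neither Xbp1 splicing nor ATF6 cleavage nor phosphorylation of eIF2 alpha was read.

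Of the transcription factors, Ddit3, which encodes the death-associated factor CHOP, had levels of 7.97 and 8.60 in the wild-type pair and of 7.73 and 8.41 in the AID transgenic pair. Both treated livers were above both untreated livers, with ratios of 0.63 ± 0.22 and 0.68 ± 0.22. Atf5, a relative of ATF4 that is abundant in liver, had levels of 15.10 and 15.80 in the wild-type pair and of 15.03 and 15.13 in the AID transgenic pair, with ratios of 0.70 ± 0.21 and 0.11 ± 0.20. Here only the treated wild-type liver stood apart. Atf4 itself was at 0.07 ± 0.21 and 0.36 ± 0.21 as the mean of a pair of probes. These gave -0.06 and 0.19 in wild-type and 0.14 and 0.59 in AID transgenic liver. With loess none of the 3 was at 2-fold in either genotype. Centred on the median, Ddit3 was at 1.15 and 1.13, Atf5 at 1.52 and 0.88 and Atf4 at 0.73 and 1.01. Under both, all 3 gene ratios were above 0 on both arrays, but with loess the wild-type ratio of Atf4 was within its scanner error, as was the AID transgenic ratio of Atf5.

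The ATF4 targets did not share a direction. In wild-type liver 2 of 9 were at least 2-fold higher (Trib3 and Vldlr), beside 1.86% of all genes, and 2 at least 2-fold lower (Asns and Chac1), beside 1.65%. In AID transgenic liver none was higher, beside 1.21%, and 2 were lower (Chac1 and Ddit4), beside 0.954%. The medians were 0.12 and -0.29 on the wild-type and the AID transgenic array, and 0.57 and -0.04 when centred on the median.

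Chac1, which degrades glutathione, was the one member at least 2-fold lower on both arrays. Its levels were 9.08 and 7.52 in the wild-type pair and 9.64 and 7.76 in the AID transgenic pair. Both treated livers were below both untreated livers, with ratios of -1.56 ± 0.28 and -1.88 ± 0.30, or 2.95-fold and 3.69-fold lower. Centred on the median, they were -1.03 and -1.33.

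Asns, asparagine synthetase, had levels of 8.36 and 6.44 in the wild-type pair and of 9.87 and 9.04 in the AID transgenic pair. Both AID transgenic livers were above both wild-type livers, and within each genotype the treated liver was lower. The ratios were -1.92 ± 0.38, or 3.78-fold lower, and -0.83 ± 0.22. The size of the wild-type ratio moved with the background correction, to -2.74 with no offset and to -3.32 with the scanner's processed signals.

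Trib3, a pseudokinase that holds back insulin and ATF4 signalling, had levels of 9.54 and 10.92 in untreated and treated wild-type liver and of 10.90 and 10.61 in the AID transgenic pair. The untreated wild-type liver was the low one of the 4 values. The ratios were 1.38 ± 0.24 and -0.29 ± 0.21, opposite in sign on the loess scale, but the AID transgenic ratio was 0.38 when centred on the median.

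Ddit4, which encodes the mTORC1 inhibitor REDD1, had levels of 11.30 and 11.40 in the wild-type pair and of 12.59 and 10.91 in the AID transgenic pair. The untreated AID transgenic liver was the high one of the 4 values. The ratios were 0.10 ± 0.20 and -1.68 ± 0.26, which is 3.19-fold lower in the treated AID transgenic liver. Median centring moved them to 0.79 and -0.99, the latter just short of 2-fold.

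Vldlr, a lipoprotein receptor that ATF4 induces, had levels of 6.72 and 8.48 in the wild-type pair and of 7.01 and 6.92 in the AID transgenic pair, with ratios of 1.76 ± 0.46 and -0.09 ± 0.42. The treated wild-type liver was the high one. Its probes did not give the same size: one gave 2.82 and the other 0.69 in wild-type liver. The wild-type ratio was 2.56 with normexp offset 0 and 3.81 with processed signals.

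Among the other targets, Sesn3, a sestrin that restrains mTORC1, was at 0.51 and 0.02. Centred on the median, it was at 1.06, past 2-fold, in wild-type and at 0.54 in AID transgenic liver. Phgdh, the first enzyme of serine synthesis, was at 0.55 ± 0.34 and 0.13 ± 0.27. Psat1, the next enzyme of that pathway, was at 0.12 ± 0.99 and 0.23 ± 0.66, and Stc2, a secreted glycoprotein, at 0.02 ± 0.92 and -0.38 ± 0.49. The signals of Psat1 and Stc2 were too close to background to give a direction. Phgdh too was not well above background in untreated wild-type liver. Its wild-type ratio was 1.18 with normexp offset 0 and 1.53 with processed signals, and its probes gave -0.03 and 0.30 in AID transgenic liver.

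The ATF4 binding site was searched as the CARE element TGATGNAA on both strands. It occurred in 5 of 33 members (15.2%), counted per gene, and in 3.97% of all windows, counted per window. Among members with a window, 4 of 9 ATF4 targets and 0 of 12 chaperones held it. The 5 matches are shown on the strand that carries the element, with its fixed letters in capitals.
Chac1: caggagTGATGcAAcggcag
Trib3: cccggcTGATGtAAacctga
Asns: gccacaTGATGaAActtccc
Herpud1: gcgggcTGATGcAAcccgcc
Vldlr: gagcgcTGATGcAActattg
Members with this element were among the highest and the lowest of the wild-type ratios: Trib3 and Vldlr were at least 2-fold higher and Asns, Chac1 and Herpud1 at least 2-fold lower.

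The windows of Chac1, at chr2:119350992-119351291 (plus strand), and Asns, at chr6:7693160-7693459 (minus strand), belong to the ATF4 targets with the largest mean size of the treatment ratios among those with a match. In Chac1 the element lies on the opposite strand.
Chac1: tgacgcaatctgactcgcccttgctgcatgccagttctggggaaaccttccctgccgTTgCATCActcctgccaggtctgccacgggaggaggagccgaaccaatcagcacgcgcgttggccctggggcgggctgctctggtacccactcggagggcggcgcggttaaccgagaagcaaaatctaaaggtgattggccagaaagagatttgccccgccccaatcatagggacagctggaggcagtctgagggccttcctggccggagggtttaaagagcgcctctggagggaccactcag
Asns: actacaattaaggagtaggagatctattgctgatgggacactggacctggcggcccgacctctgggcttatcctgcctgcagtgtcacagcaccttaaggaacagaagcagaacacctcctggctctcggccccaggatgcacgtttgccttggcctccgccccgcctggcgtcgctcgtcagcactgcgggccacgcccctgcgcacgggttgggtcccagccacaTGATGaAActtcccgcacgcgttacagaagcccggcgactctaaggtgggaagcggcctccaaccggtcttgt

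Of the phosphatase subunits, which remove the phosphate from eIF2 alpha, only Ppp1r15b in wild-type liver was past its scanner error with loess. Ppp1r15a, the stress-induced subunit GADD34, had levels of 10.03 and 9.87 in the wild-type pair and of 10.27 and 10.40 in the AID transgenic pair, with ratios of -0.16 ± 0.21 and 0.13 ± 0.20. Ppp1r15b, the constitutive subunit, had levels of 8.16 and 7.77 and of 7.99 and 7.84, with ratios of -0.39 ± 0.22 and -0.15 ± 0.21. Centred on the median, Ppp1r15a was at 0.50 and 0.80 and Ppp1r15b at 0.07 and 0.27. Neither subunit differed by 2-fold in any of the 5 comparisons.

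**Figure D3:**
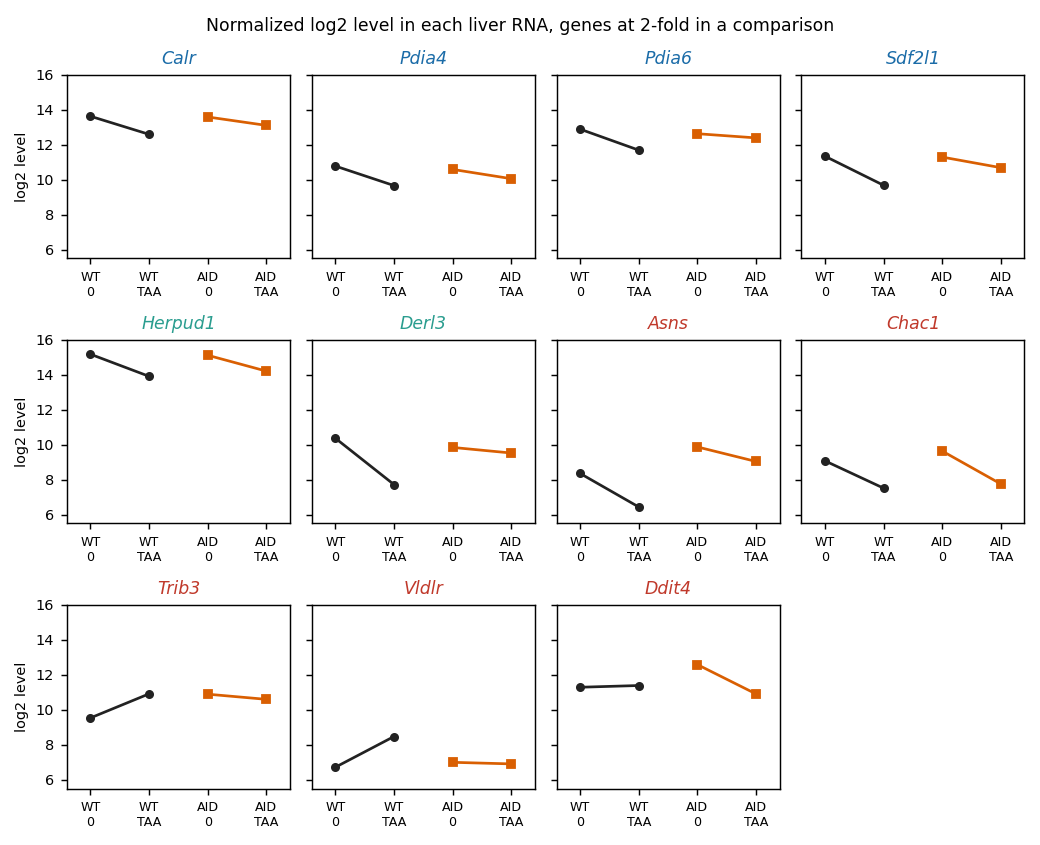
Normalized log2 level in the 4 channel values (untreated, 0, and thioacetamide-treated, TAA, liver of wild-type, WT, and AID transgenic mice) for the 11 members at 2-fold in at least 1 comparison, 1 panel a gene, 1 value a point and no error bar. The treated wild-type liver is lowest for Calr, Pdia4, Pdia6, Sdf2l1, Herpud1, Derl3, Asns and Chac1, and the untreated AID transgenic liver is highest for Ddit4.

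The treatment ratios of the genotypes were then subtracted, AID transgenic minus wild-type. Of the 37 members, 3 were at least 2-fold higher in this difference, beside 0.931% of 16971 genes, and 3 at least 2-fold lower, beside 1.04%. The higher ones were Derl3 at 2.33 ± 0.41, Asns at 1.09 ± 0.44 and Sdf2l1 at 1.06 ± 0.34. For Asns the difference was 1.81 with normexp offset 0 and 2.34 with processed signals. The lower ones were Vldlr at -1.85 ± 0.63 (-2.81 with normexp offset 0 and -3.95 with processed signals), Ddit4 at -1.77 ± 0.33 and Trib3 at -1.67 ± 0.32. The chaperone median was 0.43 and the degradation median 0.36, beside -0.00 over all genes, and 12 of 14 chaperone differences were larger than their scanner error. Centring on the median left these medians at 0.44 and 0.33. This difference shares its livers with the comparisons of treated and of untreated livers that follow, which are given side by side and not as independent results.

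In the untreated livers, AID transgenic over wild-type, the chaperones were close to each other, between -0.26 and 0.37, with a median of -0.05. Of the ATF4 targets, Psat1, Phgdh and Stc2 were not well above background in untreated wild-type liver and give no direction here. The other 6 were between 0.21 and 1.51, with a median of 0.93, and they include the 3 members at 2-fold. Asns was higher by 1.51 (2.86-fold), Trib3 by 1.36 (2.56-fold) and Ddit4 by 1.29 (2.45-fold). Of all 14186 genes measured in this comparison, 0.31% were at least 2-fold higher and 0.296% at least 2-fold lower, and no member was 2-fold lower. Each genotype lay on its own array, so array and genotype cannot be told apart.

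In the treated livers, 13 of 14 chaperones were higher in the AID transgenic liver, with a median of 0.49, as were all 5 degradation genes, with a median of 0.36. Over all genes measured in this comparison, 51.2% were below 0. Sdf2l1 was 1.01 higher (2.01-fold) and Derl3 1.80 higher (3.48-fold), and Canx at -0.04 was the chaperone below 0. Of the ATF4 targets, Asns was 2.60 higher (6.06-fold) and Vldlr was at -1.56 (2.96-fold lower). These sizes moved with the background correction. Asns was at 3.43 with normexp offset 0 and 3.94 with processed signals, and Vldlr at -2.15 and -2.51. Over all 16943 genes, 0.738% were at least 2-fold higher and 0.75% at least 2-fold lower.

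**Figure D4:**
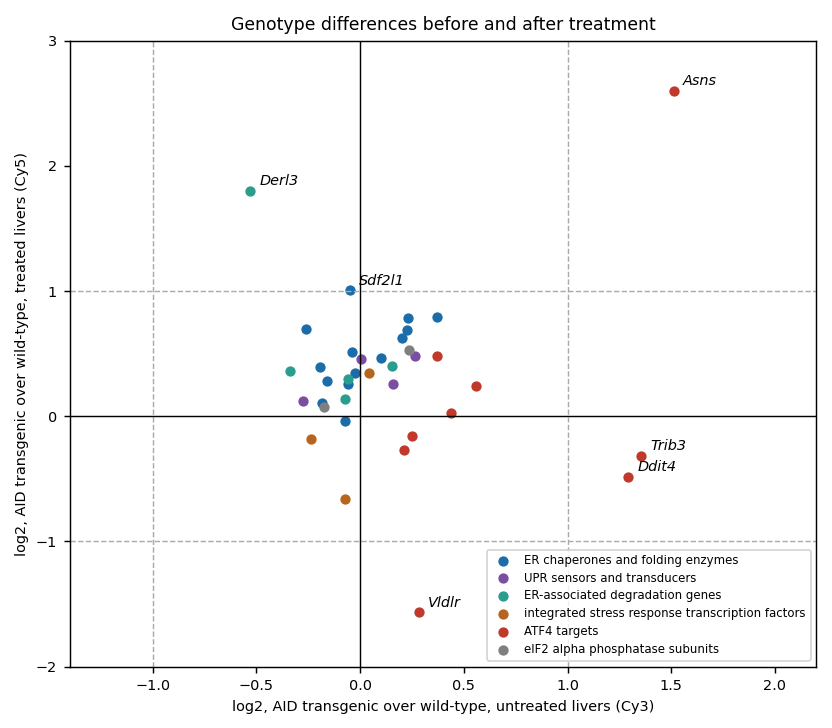
AID transgenic over wild-type log2 difference in the untreated livers (horizontal) and in the treated livers (vertical) for the 37 members, 1 point a gene, coloured by role, with dashed lines at 2-fold and names for members at 2-fold. Most chaperones lie near 0 in untreated liver and above 0 in treated liver, and Asns is past 2-fold in both.

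Other genes of the same pathways were counted on lists that were chosen with earlier results of these data known. Of 33 further genes of ER folding, glycoprotein processing and translocation, 29 (87.9%) were below 0 in wild-type liver (median -0.32) and 24 (72.7%) in AID transgenic liver (median -0.14). Over all genes the shares below 0 were 45.3% and 45.4%. Centred on the median, the medians of these 33 genes turned to 0.32 and 0.53. Ero1b, the oxidase that recharges the disulfide isomerases, was the one at 2-fold: -1.36 ± 0.25 in wild-type and -0.27 ± 0.21 in AID transgenic liver, a call that was lost when centred on the median. Of 19 further degradation genes, 14 (73.7%) were below 0 in wild-type liver (median -0.19) and 11 (57.9%) in AID transgenic liver (median -0.02), beside 45.3% and 45.4% of all genes. None of the 19 was at 2-fold, and these medians turned to 0.52 and 0.55 when centred on the median. None of 11 other regulators of the response, 9 eIF2 kinases and eIF2 or eIF2B subunits, and 12 aminoacyl-tRNA synthetases was at 2-fold on either array with loess. Centred on the median, 1 gene of the eIF2 list was higher in wild-type and 2 synthetases in AID transgenic liver. That centring made 1718 of 16528 genes higher in wild-type and 1349 of 16561 in AID transgenic liver.

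Of 25 further measured ATF4 and amino acid response targets, 3 were at least 2-fold higher in wild-type liver, beside 1.86% of all genes. They were Gdf15 at 1.41, Ndrg1 at 1.34 and Bbc3 at 1.29. Their AID transgenic ratios were 0.91, -0.17 and 0.40. Slc38a2, an amino acid transporter, was lower on both arrays, at -1.29 and -1.30. Cebpb, a partner of ATF4, was at -0.80 in wild-type and -1.13 in AID transgenic liver. Of all genes, 1.65% were at least 2-fold lower in wild-type and 0.954% in AID transgenic liver. With median centring this list had 6 higher and 0 lower genes in wild-type and 3 higher and 0 lower in AID transgenic liver, so the calls of Slc38a2 and Cebpb were lost. With processed signals 8 were higher and 1 lower in wild-type, and 6 higher and 2 lower in AID transgenic liver. The counts over all genes moved as well. Median centring gave 1718 higher and 101 lower of 16528 in wild-type, and 1349 and 53 of 16561 in AID transgenic liver. Processed signals gave 1563 and 605, and 1501 and 469.

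Markers of other cell types differed between the RNAs as well, given here as counts and as the log2 of their summed level in untreated and treated wild-type and then untreated and treated AID transgenic liver. Of 8 macrophage markers, 4 were at least 2-fold higher in treated AID transgenic liver and none in treated wild-type liver, beside 1.21% and 1.86% of all genes. With median centring 2 were higher in wild-type and 6 in AID transgenic liver, beside 1718 of 16528 and 1349 of 16561 genes. The macrophage sums were 13.76, 14.01, 14.20 and 15.31. Between the untreated livers Marco was 2.54 higher in AID transgenic liver. Of the 8 markers, 3 were below 0 in that comparison, and the median was 0.06. Of 8 fibroblast and stellate cell markers, 3 were at least 2-fold higher in treated wild-type liver, beside 1.86% of all genes. In treated AID transgenic liver 1 was at least 2-fold lower, beside 0.954%. With median centring 5 were higher in wild-type liver, beside 1718 of 16528 genes. With processed signals 2 were lower in AID transgenic liver, beside 469 of 16561 genes. The sums were 13.97, 14.33, 14.52 and 13.67. The stellate cell sums are carried by the bright Dcn probe: Col1a1, Col1a2, Col3a1 and Pdgfrb were lowest in untreated wild-type liver instead.

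Plasma cells and B cells matter here because they are rich in ER proteins. Of their markers, 0 of 9 measured were at 2-fold in wild-type liver and 1 of 10, Cd79b, was higher in AID transgenic liver, beside 1.21% of all genes. These counts moved to 3 and 2 higher with normexp offset 0, to 4 and 5 with processed signals and to 2 and 1 with median centring, none of them lower. Over 16528 and 16561 genes, the higher counts were 777 and 613 with offset 0. They were 1563 and 1501 with processed signals, and 1718 and 1349 with median centring. The sums were 11.83, 12.14, 11.89 and 11.86. Tnfrsf17 was not well above background in any channel, and Jchain was at 0.28 and 0.12. Of 5 cholangiocyte markers (3 measured in AID transgenic liver) and 5 endothelial markers, none was at 2-fold on either array with loess, with sums between 9.28 and 9.81 and between 14.06 and 14.28. The part of any of these cells in the ratios of the members was not tested.

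**Figure D5:**
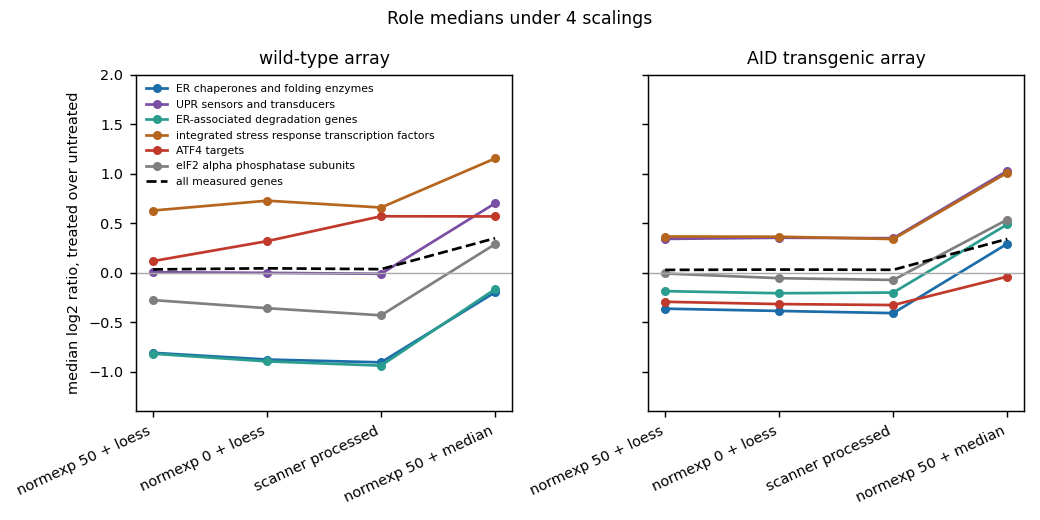
Median log2 ratio of treated over untreated liver per role (coloured lines) and over all measured genes (dashed) under 4 scalings, on the wild-type array (left) and the AID transgenic array (right). The chaperone and degradation medians lie below the dashed line under all 4 scalings in wild-type liver, while in AID transgenic liver median centring puts the degradation median above it.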

How the data were processed

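Total RNA of 4 livers or liver pools was labelled with Cy3 or Cy5 and hybridised to 2 Agilent arrays. The authors deposited scanner files with spot intensity values (mean signal, background median and processed signal), log10 ratios of Cy5 over Cy3 with their errors, and flags coded as a score, per the file headers, which name Feature Extraction 10.7.3.1; the submitters' processing notes name 10.5.1.1. The deposited value table equalled the scanner log10 ratio at all 44397 spots. The file gives probe positions on mm9.

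Intensities were corrected by normexp (offset 50), and ratios were normalized within arrays by loess (limma 3.58.1, R 4.3.3), without control and outlier spots. Levels and comparisons between arrays also used Aquantile. Spots were averaged per probe, then probes per gene. The scanner's ratio error was converted to log2. The scripts were tested on simulated data. Alternatives were normexp offset 0, processed signals, median centring, every channel well above background, the brightest probe and naming by accession. Genes described in full are those at 2-fold in any comparison and the 2 per role with the largest mean ratio size; promoters shown are the 2 chaperones and 2 ATF4 targets with the largest mean ratio size over both arrays and a motif, plus Derl3. The members and lists were chosen with earlier results of these data known. Precision is limited by the number of arrays. The level of the transgene is not reported here.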

Additional observations from a re-analysis of the deposited data

Results flagged for a closer look

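Trib3 stood out because its treatment ratios went in opposite directions in the genotypes, each by more than its scanner error: 1.38 in wild-type and -0.29 in AID transgenic liver, with a difference of -1.67 on the log2 scale. Vldlr (1.76 and -0.09) and Ddit4 (0.10 and -1.68) had opposite signs and larger differences too, but in each the smaller ratio was within its scanner error. With 1 array per genotype these differences were not tested, and the AID transgenic ratio of Trib3 was 0.38 when the array was centred on its median.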

How the results depend on the processing

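Over all genes, the scaling set the balance of the calls. In wild-type liver 307 genes were higher and 273 lower, which makes 52.9% of calls higher, against 777 and 405 (65.7%) with normexp offset 0. Processed signals gave 1563 and 605 (72.1%), and median centring 1718 and 101 (94.4%). In the same order of settings, the AID transgenic counts were 200 and 158 (55.9%), 613 and 267 (69.7%), 1501 and 469 (76.2%), and 1349 and 53 (96.2%). For the difference of the treatment ratios they were 158 and 177, 374 and 500, 798 and 938, and 168 and 207. For the untreated livers they were 44 and 42, 106 and 99, 214 and 203, and 42 and 36, and for the treated livers 125 and 127, 236 and 227, 456 and 457, and 137 and 143.

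Among the members, median centring gave 6 higher and 3 lower in wild-type liver (2 and 8 with loess and offset 50). It gave 4 higher and 1 lower in AID transgenic liver (0 and 2). It moved the chaperone median to -0.20 and 0.29, the degradation median to -0.17 and 0.49, and the wild-type ATF4 target median to 0.57. Processed signals gave 4 higher in wild-type liver, 5 lower in the difference (3 before) and 7 higher in untreated AID transgenic liver (3 before), and a wild-type ATF4 target median of 0.57. The ATF4 target median of the difference was -0.41, and became -0.91 with offset 0, -1.41 with processed signals and -1.08 over genes well above background in every channel. The untreated median over all 9, 0.44, rests on a gene that was not well above background in wild-type liver and became 1.43 with processed signals and 0.93 over those genes. The cause of these moves was not tested. The brightest probe and naming by accession moved none of these counts or medians past the limits used. No paired analysis was possible because each genotype had 1 array. Single arrays, the dye, sex-linked transcripts and the array each genotype lay on limit every value here, and dim genes such as Psat1 and Stc2 carry scanner errors near their whole ratio or above it.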
